A study of Mus musculus with 10 samples.

Results

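Glutathione transferases are the enzymes that couple glutathione to reactive compounds, and 9 of their mouse genes were followed through all arrays of the study. They were taken by gene symbol: Gsta4 of the alpha class, Gstm1, Gstm2 and Gstm5 of the mu class, Gstp1 of the pi class, Gstt1 of the theta class, Gsto1 of the omega class, and the membrane-bound Mgst1 and Mgst3. These 9 genes, of 18193 genes with a probe set of a single symbol, were measured by 15 of the 45101 probe sets on the array. Through 13 of those 15 probe sets, each of the 9 genes passed the filter on low values, a mean signal at or above the 40th percentile (a signal of about 45).

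Soluble glutathione transferases act in the cytosol as dimers and differ by class in the compounds they accept, such as lipid peroxidation products for Gsta4. The microsomal enzymes sit in membranes and belong to a separate family that also includes enzymes of leukotriene synthesis. The lens is rich in glutathione, which keeps its long-lived crystallins reduced, and many glutathione transferase genes are known targets of the stress-responsive factor NRF2.

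Expression was measured in whole dissected mouse lenses of 2 genotypes at 2 ages on Affymetrix whole genome mouse arrays. Lenses labelled Klf4-conditional null (Klf4CN) and wild type (WT) were taken at postnatal day 56 (PN56), with 2 arrays per genotype, and at embryonic day 16.5 (E16.5), with 3 arrays per genotype. Every array had its own preparation, made from the lenses of 3 young adult mice at PN56 or of 5 embryos at E16.5, so that a value is an average over pooled animals. The labels do not say which promoter or Cre line produced the conditional null, nor the strain or any other allele. No further treatment is given for any group. Klf4 encodes a zinc finger transcription factor.

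The deposited signals are linear intensities, and each of the 10 arrays had the same mean of 500 after 2% of values were trimmed at each end. Median signals ran from 91.0 to 108.6 on PN56 arrays and from 63.0 to 76.9 on E16.5 arrays. The signal of Klf4 itself went against the label at PN56: it averaged 717 ± 20.9 in lenses labelled Klf4CN and 185 ± 40.3 in WT lenses (SD, n = 2 each; log2 difference 1.88, limma adjusted p = 0.004103). At E16.5 it averaged 1079 ± 278 in lenses labelled Klf4CN and 739.4 ± 295 in WT lenses (SD, n = 3 each; limma adjusted p = 0.9998). Which part of Klf4 the probes read relative to the deleted part is not given in the sources used here, so these signals do not check the deletion, and the group is called here by its label. The 11 measured lens fibre markers, checked for the tissue label, summed to at least 258340 on every array. Signals of other eye tissues were present too: photoreceptor markers summed to 4512.7 to 15164 on PN56 Klf4CN arrays and 5765.5 to 6034.4 on PN56 WT arrays, and retinal neuron and progenitor markers to 7425.5 to 18370 on E16.5 Klf4CN arrays and 2484.8 to 10631 on E16.5 WT arrays. The spike-in dap was read at 6.5 to 14.5 on PN56 arrays and 3124.9 to 4159.2 on E16.5 arrays, and so a difference with age and a difference in preparation cannot be told apart.

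Gstp1, Gstm5 and Gstm2 carried the calls between genotypes, and Gstm1, of the 9 genes, had the largest difference between ages in its genotype effect, so the 250 bases before the start of each of these 4 genes are shown. The sequences are RefSeq's, on build GRCm38.p6, and 8 of the 9 genes had an entry. Gsta4 is named only. The Gstp1 window lies at chr19:4037913-4038162 on the minus strand, that of Gstm5 at chr3:107895604-107895853 on the plus strand, that of Gstm2 at chr3:107986421-107986670 on the minus strand and that of Gstm1 at chr3:108017974-108018223 on the minus strand. Capitals mark matches on either strand to CACCC, a core bound by Kruppel-like factors, to TGACTCA, the core bound by AP-1, and to TGACNNNGC, the core of the antioxidant response element.
Gstp1 promoter: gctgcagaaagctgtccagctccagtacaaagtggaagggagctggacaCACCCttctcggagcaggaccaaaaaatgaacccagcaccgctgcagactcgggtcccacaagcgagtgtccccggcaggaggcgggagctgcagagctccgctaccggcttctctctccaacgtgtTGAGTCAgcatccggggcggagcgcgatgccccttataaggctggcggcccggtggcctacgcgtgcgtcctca
Gstm5 promoter: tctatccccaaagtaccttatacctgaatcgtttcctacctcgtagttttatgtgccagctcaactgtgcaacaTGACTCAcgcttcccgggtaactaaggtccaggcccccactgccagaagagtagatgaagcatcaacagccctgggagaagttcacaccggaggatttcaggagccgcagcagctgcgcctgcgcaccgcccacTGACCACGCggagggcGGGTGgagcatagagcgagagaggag
Gstm2 promoter: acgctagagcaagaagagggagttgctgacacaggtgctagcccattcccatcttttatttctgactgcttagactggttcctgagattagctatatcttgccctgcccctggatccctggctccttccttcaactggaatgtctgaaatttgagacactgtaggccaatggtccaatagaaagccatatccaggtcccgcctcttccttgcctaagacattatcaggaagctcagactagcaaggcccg
Gstm1 promoter: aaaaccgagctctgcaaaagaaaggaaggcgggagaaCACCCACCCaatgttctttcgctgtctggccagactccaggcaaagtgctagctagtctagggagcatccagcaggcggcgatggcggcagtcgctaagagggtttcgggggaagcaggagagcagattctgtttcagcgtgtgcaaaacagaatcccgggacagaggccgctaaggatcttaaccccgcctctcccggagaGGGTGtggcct
CACCC was found in 51.3% of 27025 mouse windows of this length, TGACTCA in 4.43% and TGACNNNGC in 10.2%. The Gstp1 window holds 1 CACCC and 1 TGACTCA, the second read on the reverse strand 74 to 68 bases before the start. The Gstm5 window holds 1 match to each motif, with TGACTCA 176 to 170 and TGACNNNGC 42 to 34 bases before the start. The Gstm1 window holds 3 matches to CACCC, of which 2 overlap, and the Gstm2 window holds none of the 3 motifs. Among the other members, Gsto1 had 2 matches to CACCC, Mgst1 had 2 to CACCC and 1 to TGACNNNGC, and Gstt1 and Mgst3 had none. A match describes these letters in this window and is not a shown binding site.

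In young adult lenses the pi class gene and 1 mu class gene were higher in lenses labelled Klf4CN and another mu class gene was lower. Of the 9 genes, 3 were called at a limma adjusted p under 0.05, against 13% of all 13450 genes tested. Higher calls were 2 of 9 (Gstp1 and Gstm5), against 6.04% of all genes, and lower calls 1 of 9 (Gstm2), against 6.97%. The median log2 difference was 0.10 over the 9 genes and -0.056 over all genes tested. In whole lens RNA, fewer cells of a type and less RNA per cell cannot be told apart.

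Gstp1, the pi class enzyme, had signals of 47153 and 52594 in PN56 lenses labelled Klf4CN, against 30385 and 29862 in PN56 WT lenses. Both Klf4CN values lay above every other array in the data, including those at E16.5. The log2 difference was 0.73 ± 0.10 (SE, 1.65-fold, limma adjusted p = 0.000705), and the call held in all 23 alternative settings. Whether its probe set also reads transcripts of the near-identical neighbour Gstp2 was not tested.

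Gstm5, a mu class enzyme, had signals of 14911 and 17382.5 in PN56 lenses labelled Klf4CN, against 10855 and 11921 in PN56 WT lenses. The groups did not overlap, and the PN56 WT values were the lowest of all 10 arrays. The log2 difference was 0.50 ± 0.11 (SE, limma adjusted p = 0.01138). The call was lost without PN56 WT replicate 1 (log2 0.43, limma adjusted p = 0.0706) and without PN56 Klf4CN replicate 2 (log2 0.39, limma adjusted p = 0.07473), and also without the intensity trend (limma adjusted p = 0.06354), with array weights (limma adjusted p = 0.05992) and in a fit on the compared groups alone (limma adjusted p = 0.06544).

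Gstm2, also of the mu class, ran the other way. It had signals of 1843 and 2148 in PN56 lenses labelled Klf4CN, against 3271 and 2985 in PN56 WT lenses, with no overlap. It fell by 0.65 ± 0.17 on the log2 scale (SE, limma adjusted p = 0.02318). The call was lost without PN56 WT replicate 1 (log2 -0.58, limma adjusted p = 0.1122) or PN56 Klf4CN replicate 1 (log2 -0.54, limma adjusted p = 0.1000), and also with each array centred on its median (log2 -0.52, limma adjusted p = 0.1266), without the intensity trend (limma adjusted p = 0.05433) and with array weights (limma adjusted p = 0.1322).

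The remaining 6 genes did not pass the test at PN56. Gsto1, an omega class enzyme that reduces dehydroascorbate and thiol adducts, had signals of 5848 and 6243 in PN56 lenses labelled Klf4CN, against 7690.0 and 7623 in PN56 WT lenses. These did not overlap, with a log2 difference of -0.34 (limma adjusted p = 0.08008), and passed the test only under quantile normalization (log2 -0.41, limma adjusted p = 0.04031). Gstm1 had signals of 17549 and 18862 in PN56 lenses labelled Klf4CN, against 15845 and 14909 in PN56 WT lenses (log2 0.24, limma adjusted p = 0.1284). Its other probe sets lay below 0. In a fit on all probe sets, 1425626_at was called lower (log2 -0.90, limma adjusted p = 0.04168). Mgst3, a membrane enzyme with glutathione peroxidase activity, read 374.7 and 1068 in PN56 lenses labelled Klf4CN, against 309.0 and 425.1 in PN56 WT lenses. The first Klf4CN array lay between the WT values and the second above all others (log2 0.78, limma adjusted p = 0.1885), and the difference depended on which Klf4CN array was kept: it was 1.52 without PN56 Klf4CN replicate 1 (limma adjusted p = 0.005402) and 0.045 without PN56 Klf4CN replicate 2 (limma adjusted p = 0.945). Gsta4 (log2 0.10, 95% interval -0.49 to 0.70), Mgst1 (0.045, -0.64 to 0.74) and Gstt1 (-0.42, -1.69 to 0.85) had wide intervals that cover 0.

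**Figure D1:**
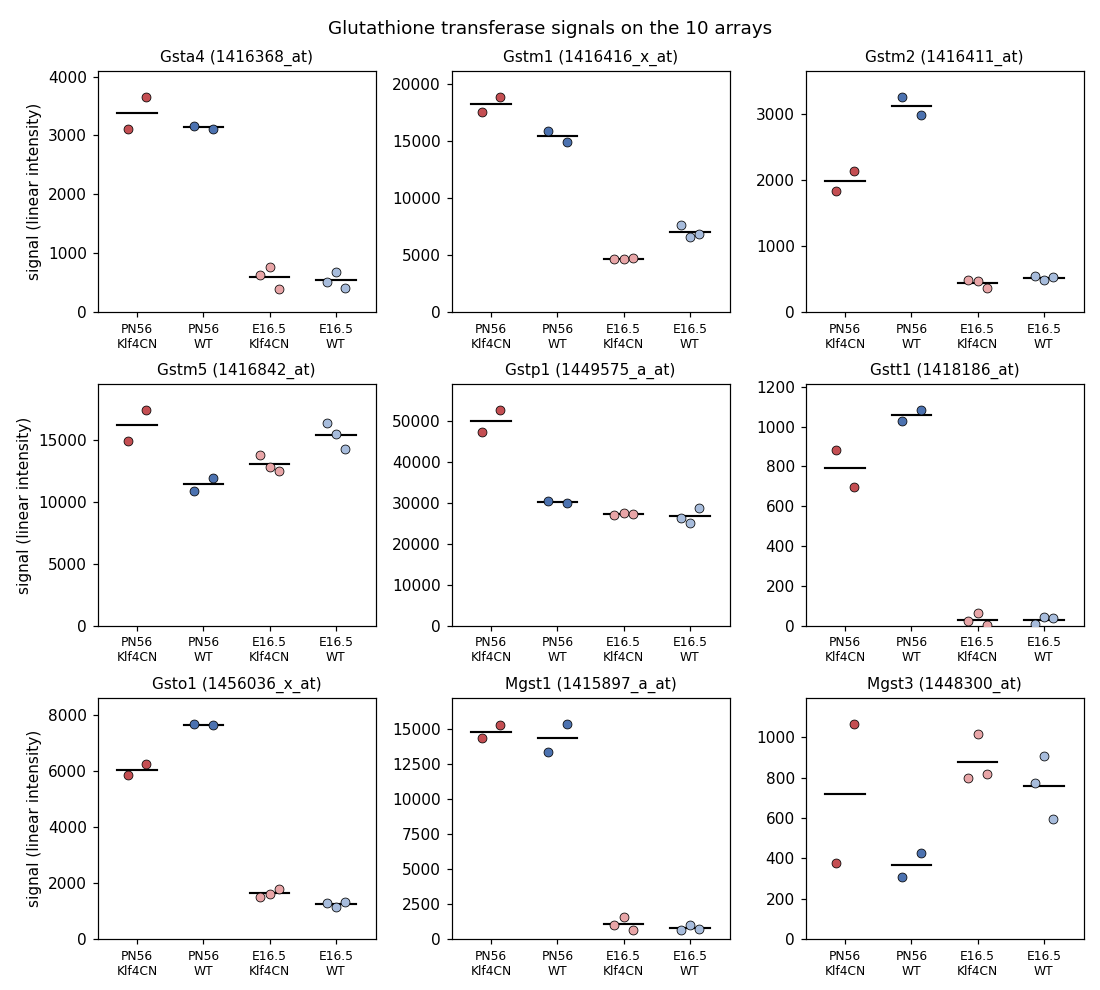
Signal (linear intensity, vertical axis from 0) of the probe set that stands for each of the 9 glutathione transferases; points are arrays (2 per group at PN56, 3 at E16.5) and lines are group means. Both PN56 Klf4CN points of Gstp1, at 47153 and 52594, lie above the other 8 arrays, and Gstm2 lies lower in PN56 Klf4CN than in PN56 WT lenses.

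Markers of lens cells and several array controls differed with genotype at PN56. Lens fibre markers summed to 710860 to 726100 on PN56 Klf4CN arrays and 933060 to 1058200 on PN56 WT arrays, and 8 of 11 were called lower. Lens epithelium markers summed to 17606 to 18654 on PN56 Klf4CN arrays and 30557 to 31326 on PN56 WT arrays, and 4 of 6 were called lower. The 5 corneal epithelium markers summed to 5616.5 to 6837.3 on PN56 Klf4CN arrays and 11307 to 13423 on PN56 WT arrays. Of the 3 that were tested, 1 was called lower. Aldh3a1 made up most of these sums, with means of 5670 in Klf4CN and 12030 in WT lenses. Krt15 ran the other way (356.9 in Klf4CN against 87.15 in WT), and Krt5 means were 80.85 in Klf4CN and 75.45 in WT lenses. Pigment cell markers summed to 7023.8 to 7407 on PN56 Klf4CN arrays and 9738.9 to 11679 on PN56 WT arrays, though the only call among 8 was higher. Retinal neuron and progenitor markers summed to 4449.1 to 5184.7 on PN56 Klf4CN arrays and 5706.7 to 6325.6 on PN56 WT arrays, with 0 of 11 called. Sox2 made up most of these retinal sums, with means of 3221 in Klf4CN and 4280 in WT lenses. By log2 difference, 5 of the 11 were higher in lenses labelled Klf4CN and 6 lower. Macrophage markers were called higher in 2 of 11 cases and lower in 0. Corneal and periocular mesenchyme markers were called higher in 1 of 6 cases and lower in 0. All 8 tested photoreceptor markers were higher in lenses labelled Klf4CN, with 0 called. Of 7 endothelium markers, 1 was called higher and 1 lower. The 18S rRNA control read 5700.1 and 11005.1 on PN56 Klf4CN arrays and 527.5 and 2870 on PN56 WT arrays, and the ratio of the 3' to the 5' probe set of Actb, a measure of RNA integrity, was 1.598 and 1.455 on PN56 Klf4CN arrays and 1.789 and 1.883 on PN56 WT arrays. The hybridisation spike cre read 51262 to 53238 on PN56 Klf4CN arrays and 72629 to 83845 on PN56 WT arrays. Their part in the glutathione transferase differences was not tested.

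In the mu cluster the neighbour of Gstm5 moved in the same direction at PN56. The 7 mu class genes of mouse chromosome 3 lie in the order Gstm5, Gstm7, Gstm6, Gstm3, Gstm2, Gstm1 and Gstm4, with 0 other protein-coding genes between them in the RefSeq annotation of GRCm38.p6. At PN56 the first 2 genes, Gstm5 and Gstm7, were called higher in lenses labelled Klf4CN, Gstm2 was called lower, and the other 4 were not called. Gstm7 had signals of 1719 and 1929.5 in PN56 lenses labelled Klf4CN, against 1014 and 1036 in PN56 WT lenses. That is a log2 difference of 0.82 (limma adjusted p = 0.00237), lost when its probe sets were averaged (0.66, limma adjusted p = 0.1132). Log2 differences of the uncalled genes were 0.28 for Gstm6, -0.61 for Gstm3, 0.24 for Gstm1 and 0.16 for Gstm4. Mu class transcripts are alike in sequence, and how far a probe set also reads its neighbours was not tested.

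**Figure D2:**
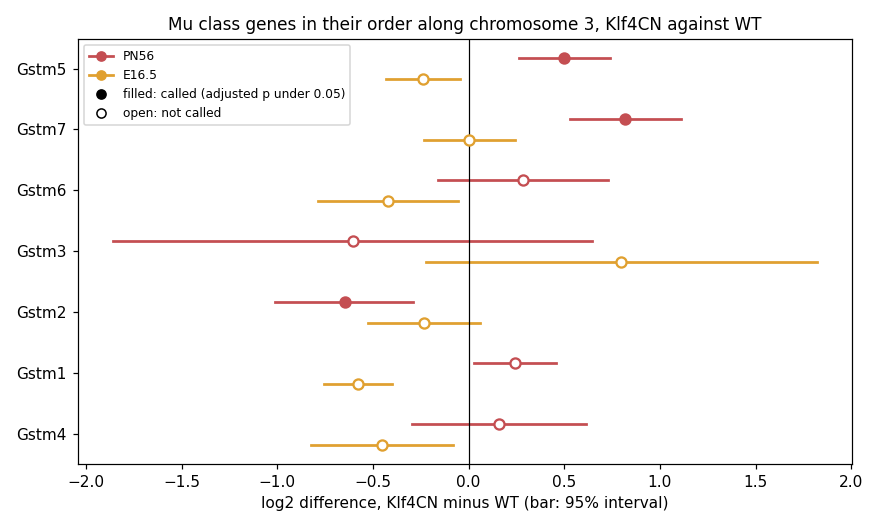
Log2 difference in signal, Klf4CN minus WT (horizontal axis), of the 7 mu class genes in their order along chromosome 3, at PN56 and at E16.5; bars are 95% intervals and filled points were called. At PN56 Gstm5 (0.50) and Gstm7 (0.82) lie above 0 and Gstm2 (-0.65) below it; no E16.5 point was called.

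In embryonic lenses none of the 9 genes passed the test, and only 0.00743% of all genes did. At an unadjusted p under 0.05, 3 of the 9 genes (Gstm1, Gsto1 and Gstm5) and 606 of the 13450 genes were counted. By chance alone 672 of the 13450 would be expected. The median log2 difference was 0.032 over the 9 genes, against -0.00011 over all genes tested. Gstm1, a mu class enzyme, came closest. It had signals of 4664.5, 4630.5 and 4753 in E16.5 lenses labelled Klf4CN, against 7619.7, 6562 and 6856.5 in E16.5 WT lenses, without overlap. The log2 difference was -0.58 ± 0.08 (SE, limma adjusted p = 0.05546), and it passed under quantile normalization (limma adjusted p = 0.03412) and with array weights (limma adjusted p = 0.008706).

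Gsto1 was brighter in each E16.5 lens sample labelled Klf4CN, at 1492, 1615 and 1799, against 1293, 1151 and 1307 in E16.5 WT lenses (log2 0.38, limma adjusted p = 0.6802). Gstm5 was dimmer there, at 13759, 12819.8 and 12445.5, against 16318, 15464 and 14246 in E16.5 WT lenses (log2 -0.24, limma adjusted p = 0.9998). Gstp1 was nearly level, at 26929, 27538 and 27115 in E16.5 lenses labelled Klf4CN, against 26163, 25132 and 28605 in E16.5 WT lenses, with a 95% interval of the log2 difference from -0.14 to 0.20. Gstm2, Gsta4, Mgst1, Mgst3 and Gstt1 overlapped between the genotypes. On these arrays pigment cell markers summed to 3690.9 to 9823.1 in lenses labelled Klf4CN and 2693.3 to 3813.2 in WT lenses, with 0 of 8 called. An 18S rRNA control read 20897 to 22776 in E16.5 lenses labelled Klf4CN and 1155.3 to 2412.8 in E16.5 WT lenses. With pigment and retinal markers as a covariate the E16.5 log2 difference was -0.46 for Gstm1 (limma adjusted p = 0.987) and 0.43 for Gsto1. That covariate, the markers' mean log2 signal, was 9.052 to 9.995 on E16.5 Klf4CN arrays and 6.623 to 8.578 on E16.5 WT arrays. With no overlap between genotypes, the fit separates markers and genotype poorly at E16.5. The part of the 18S signal was not tested.

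The effect of the genotype differed between the ages for 4 of the 9 genes by limma's test of that difference, against 4.79% of all genes. It was more positive at PN56 for 3 of 9 genes (2.69% of all genes) and more negative for 1 of 9 (2.1% of all genes). For Gstm1 the log2 effects were 0.24 at PN56 and -0.58 at E16.5, a difference of 0.82 (limma adjusted p = 0.005896). For Gstm5 they were 0.50 at PN56 and -0.24 at E16.5, a difference of 0.74 (limma adjusted p = 0.0154). For Gstp1 they were 0.73 at PN56 and 0.032 at E16.5, a difference of 0.69 (limma adjusted p = 0.01198), which was 0.31 under quantile normalization (limma adjusted p = 0.1393). Gsto1 ran the other way, with -0.34 at PN56 and 0.38 at E16.5, a difference of -0.72 (limma adjusted p = 0.0226). The 4 calls fell to 0 with pigment and retinal markers as a covariate and to 0 without the intensity trend. With that covariate the differences were 0.67 for Gstm1, 0.63 for Gstm5, 0.74 for Gstp1 and -0.78 for Gsto1. Because the covariate did not overlap between genotypes at E16.5, this fit cannot tell what part the markers had. Without PN56 WT replicate 1, 2 of the 9 genes were called, with Gstm5 (0.67, limma adjusted p = 0.05129) and Gsto1 (-0.72, limma adjusted p = 0.0641) lost. Gsto1 also lost its call with arrays centred on the median (-0.55, limma adjusted p = 0.1374), with array weights (-0.73, limma adjusted p = 0.06421), and without E16.5 WT replicate 2 (-0.66, limma adjusted p = 0.05036) or E16.5 Klf4CN replicate 3 (-0.65, limma adjusted p = 0.05767), and Mgst3 gained 1 without PN56 Klf4CN replicate 1 (1.30, limma adjusted p = 0.03976).

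**Figure D3:**
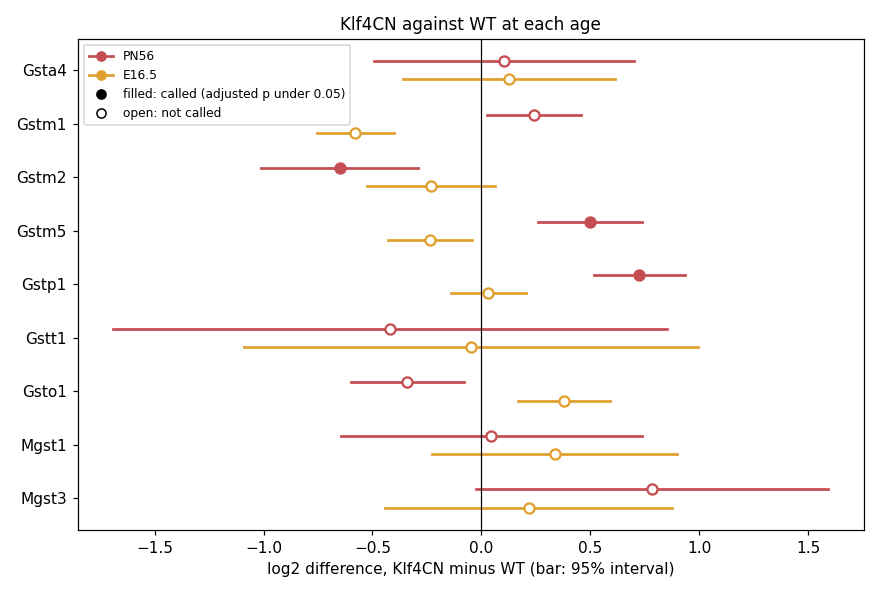
Log2 difference in signal, Klf4CN minus WT (horizontal axis), of the 9 genes at PN56 and at E16.5; bars are 95% intervals from the limma fit and filled points were called. Gstp1 (0.73), Gstm5 (0.50) and Gstm2 (-0.65) were called at PN56, and no gene was called at E16.5.

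Gstm1 was read by 4 probe sets, and at PN56 they lay on both sides of 0. At PN56 the log2 differences between lenses labelled Klf4CN and WT lenses were 0.24 for 1416416_x_at, which stands for the gene above as its brightest, -0.23 for 1448330_at, -0.47 for 1425627_x_at and -0.90 for 1425626_at. Of these only 1425626_at was called in the fit on all probe sets (lower, limma adjusted p = 0.04168), without overlap. At E16.5 the log2 differences were -0.58, -0.44, -0.41 and -0.15 in the same order, so that all 4 lay below 0. An x_at set is one whose probes also match other sequences. The probe set 1448330_at, which has no such suffix, read 11325 and 12804 in PN56 lenses labelled Klf4CN, against 15101 and 13159 in PN56 WT lenses, and 3862, 3677 and 3882 in E16.5 lenses labelled Klf4CN, against 5831, 4728 and 5005 in E16.5 WT lenses. The difference of these effects between ages was 0.82 for 1416416_x_at, 0.21 for 1448330_at, -0.061 for 1425627_x_at and -0.75 for 1425626_at, and only the first was called in the fit on all probe sets (limma adjusted p = 0.009168). With the mean of the 4 probe sets it was 0.057 (limma adjusted p = 0.9103).

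Gsto1 had 2 probe sets, and the second, 1416531_at, gave smaller differences than 1456036_x_at: -0.081 at PN56 and 0.14 at E16.5, against -0.34 at PN56 and 0.38 at E16.5. With their mean, the difference between ages was -0.47 (limma adjusted p = 0.1274). Mgst1 and Mgst3 each had a second probe set that was dim, at 3.1 to 76.9 for Mgst1 and 3.4 to 51.4 for Mgst3 over the 10 arrays, and did not pass the filter.

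**Figure D4:**
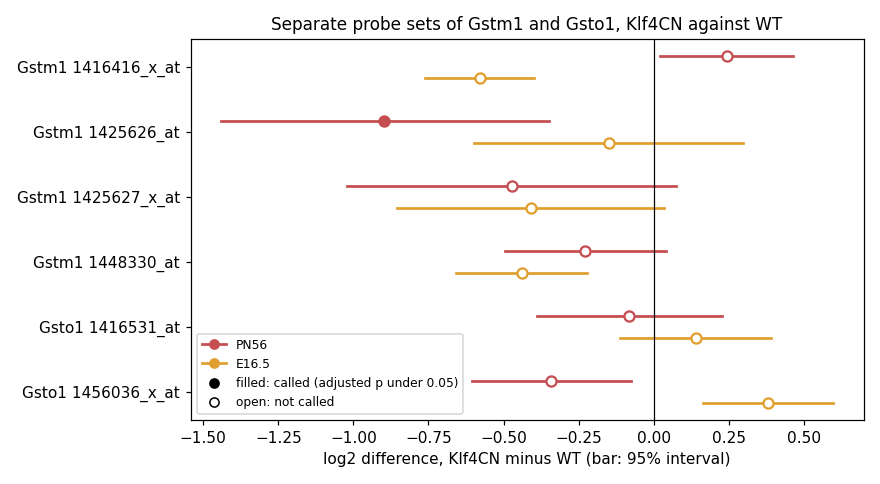
Log2 difference in signal, Klf4CN minus WT (horizontal axis), for the 4 probe sets of Gstm1 and the 2 of Gsto1 at PN56 and at E16.5; bars are 95% intervals from a fit on all 23684 probe sets above the filter. Filled points were called. At PN56 the x_at set 1416416_x_at of Gstm1 lies above 0 (0.24) and the other 3 lie below it. Of these, 1425626_at (-0.90) was called lower.

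With age, most of the 9 genes rose. The rise did not extend to the 15 other glutathione transferases and relatives tested. Of those, 4 were called higher and 3 lower in lenses labelled Klf4CN, and 3 higher and 4 lower in WT lenses. In lenses labelled Klf4CN 8 of the 9 genes were called higher at PN56 than at E16.5, against 21.6% of all genes, and 0 of 9 lower, against 30.5%; in both directions together 52.1% of all genes were called. In WT lenses 6 of the 9 genes were called higher, against 25% of all genes, and 2 lower, against 30.7%, with 55.6% of all genes called in all. Gstt1, counted as higher in both, passed the filter (a signal of about 45) only through its PN56 signals. Its E16.5 means were 29.93 in lenses labelled Klf4CN and 29.13 in WT lenses, so its call is no independent support for the rise. The median log2 difference was 1.95 over the 9 genes in lenses labelled Klf4CN and 2.54 in WT lenses, beside -0.10 (Klf4CN) and -0.043 (WT) over all genes tested. Centring each array on its median moved those all-gene medians to -0.45 (Klf4CN) and -0.56 (WT), and age differences are to be read relative to them.

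Mgst1, a membrane enzyme with transferase and peroxidase activity, had PN56 signals of 14330.0 and 15225 in lenses labelled Klf4CN, against 1010.4, 1555 and 619.6 at E16.5. In WT lenses it read 13346 and 15348.5 at PN56, against 629.3, 1015 and 750.3 at E16.5. The log2 differences were 3.87 in lenses labelled Klf4CN and 4.17 in WT lenses (limma adjusted p = 4.024e-07 and 1.84e-07), with no overlap between ages. With its 2 probe sets averaged, the dim one included, they were 1.85 in lenses labelled Klf4CN (limma adjusted p = 0.0001848) and 2.62 in WT lenses (limma adjusted p = 1.283e-05).

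Gstt1, a theta class enzyme, was near background in the embryo. It read 884.4 and 697.5 in PN56 lenses labelled Klf4CN, against 21.8, 62.8 and 5.2 at E16.5, and 1030.4 and 1083 in PN56 WT lenses, against 5.6, 43.8 and 38.0 at E16.5. The log2 differences were 4.33 in lenses labelled Klf4CN and 4.70 in WT lenses, and they moved to 5.24 and 5.55 with an offset of 1 and to 3.22 and 3.62 with an offset of 64. Such a fold is set in part by the offset added before taking logs.

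Gsta4, an alpha class enzyme that clears 4-hydroxynonenal, had signals of 3117 and 3661 in PN56 lenses labelled Klf4CN, against 634.4, 765.1 and 394.3 at E16.5. In WT lenses it read 3169.5 and 3118 at PN56, against 515.8, 687.7 and 411.1 at E16.5. The log2 differences were 2.52 in lenses labelled Klf4CN and 2.54 in WT lenses. The order of its group means was PN56 Klf4CN, PN56 WT, E16.5 Klf4CN and E16.5 WT, and neighbours of the same age overlapped.

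Gstm2 rose by 2.13 on the log2 scale in lenses labelled Klf4CN and by 2.55 in WT lenses. Its E16.5 signals were 491.6, 477.5 and 368.1 in lenses labelled Klf4CN and 542.7, 489.0 and 535.9 in WT lenses, so that every PN56 array lay above them. Gsto1 rose by 1.88 in lenses labelled Klf4CN and by 2.60 in WT lenses, and Gstm1 by 1.95 in lenses labelled Klf4CN and by 1.13 in WT lenses (0.62 with arrays centred on the median). All of these 6 changes were called, with PN56 arrays above E16.5 arrays in each.

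The age changes of Gstp1, Gstm5 and Mgst3 were smaller or ran the other way, and depended on the scaling or on single arrays. Gstp1 rose by 0.87 in lenses labelled Klf4CN (limma adjusted p = 4.789e-06), a change that was lost under quantile normalization (-0.0039, limma adjusted p = 0.9716) and was 0.53 with arrays centred on the median (limma adjusted p = 0.0009119), and differed by 0.18 in WT lenses (limma adjusted p = 0.1004), where it turned to -0.31 under quantile normalization (limma adjusted p = 0.004888) and to -0.34 with arrays centred on the median (limma adjusted p = 0.01625). Gstm5 rose by 0.31 in lenses labelled Klf4CN (limma adjusted p = 0.02076), which turned to -0.036 with arrays centred on the median, and fell by 0.43 in WT lenses (limma adjusted p = 0.003012; -0.95 centred). The Klf4CN call for Gstm5 was lost under quantile normalization (0.029, limma adjusted p = 0.8104), without the intensity trend, with the marker covariate, and without PN56 Klf4CN replicate 2 (0.20, limma adjusted p = 0.1817), E16.5 Klf4CN replicate 2 (0.30, limma adjusted p = 0.05325) or E16.5 Klf4CN replicate 3 (0.28, limma adjusted p = 0.06545).

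Mgst3 was lower at PN56 in WT lenses, at 309.0 and 425.1 against 774.9, 906.2 and 596.2 at E16.5 (log2 -1.01, limma adjusted p = 0.02249). That call was lost without PN56 WT replicate 1 (-0.79, limma adjusted p = 0.1545), E16.5 WT replicate 1 (-0.99, limma adjusted p = 0.05072) or E16.5 WT replicate 2 (-0.88, limma adjusted p = 0.06925), with probe sets averaged (-0.91, limma adjusted p = 0.06251) and without the intensity trend (limma adjusted p = 0.05715), and the difference was -1.53 with arrays centred on the median. In lenses labelled Klf4CN it read 374.7 and 1068 at PN56, against 796.9, 1014 and 820.3 at E16.5, which overlap (log2 -0.45, limma adjusted p = 0.2882). With arrays centred on the median it was -0.79 (limma adjusted p = 0.04929), and without PN56 Klf4CN replicate 2 the difference was -1.19 (limma adjusted p = 0.003853). With age, lens fibre markers were called higher in 10 of 11 cases in lenses of each label, and endothelium markers lower in 7 of 7. Markers of other tissues differed with age as well. Photoreceptor markers summed to 4512.7 to 15164 on PN56 arrays and 199.4 to 523 on E16.5 arrays, with 7 of 8 called higher in lenses of each label. Corneal epithelium markers summed to 5616.5 to 13423 on PN56 arrays and 106 to 284.4 on E16.5 arrays, with 2 of 3 called higher in lenses labelled Klf4CN and 1 of 3 in WT lenses. Aldh3a1 made up most of the PN56 sums, with means of 5670 in Klf4CN and 12030 in WT lenses. Macrophage markers summed to 2199.1 to 4038.5 on PN56 arrays and 7284.7 to 11732 on E16.5 arrays, with 8 of 11 called lower in lenses labelled Klf4CN and 10 of 11 in WT lenses, and erythroid markers to 82.2 to 225.1 on PN56 arrays and 1892.9 to 2757.3 on E16.5 arrays, with 2 of 2 called lower in lenses of each label. The part of these markers in the age changes was not tested.

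**Figure D5:**
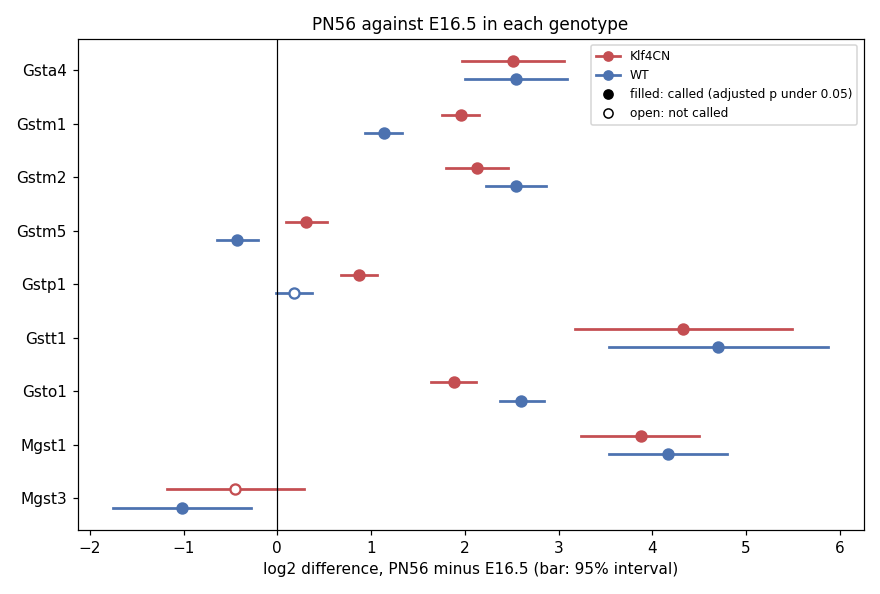
Log2 difference in signal, PN56 minus E16.5 (horizontal axis), of the 9 genes in lenses labelled Klf4CN and in WT lenses; bars are 95% intervals and filled points were called. Mgst1 and Gstt1 lie highest, near 4, and Gstp1 in WT lenses (0.18) and Gstm5 in Klf4CN lenses (0.31) lie close to 0. The Gstp1 value in WT lenses turned negative under quantile normalization and with arrays centred on the median. That of Gstm5 in Klf4CN lenses did so only with the centring. Gstp1 in Klf4CN lenses (0.87) was -0.0039 under quantile normalization.

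Some other genes had profiles like those of the family over the 10 arrays, measured as the root mean square difference of log2 signals after each gene was centred on its own mean. For Gstp1 the nearest was Timm23, at 0.0833, beside a spread of 0.369 (SD) of Gstp1 itself. For Gstm5 it was Gemin7 at 0.083, for Gstm1 Rcan2 at 0.122, for Gstm2 Tst at 0.151, for Gsto1 Grifin at 0.168, for Mgst3 Rbfox3 at 0.19, for Gsta4 Slco3a1 at 0.191, for Gstt1 Pla2g5 at 0.326 and for Mgst1 Prelp at 0.334. Gstt1 also had Mgst1 as its second nearest, at 0.44. These are the smallest values among all tested genes, and all genes share the scaling of each array. The members' own spreads ran from 0.213 (SD) for Gstm5 to 2.41 for Gstt1, so these values do not rank the members by likeness.

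Of 15 other glutathione transferases and relatives tested, 2 were called higher in PN56 lenses labelled Klf4CN, against 6.04% of all genes, and 0 lower, against 6.97%. Gstk1, a kappa class enzyme of mitochondria and peroxisomes, had signals of 1557 and 1923 in PN56 lenses labelled Klf4CN, against 715.2 and 622.7 in PN56 WT lenses. No array overlapped (log2 1.35, limma adjusted p = 0.001683). At E16.5 Gstk1 read 489.0, 554.6 and 748.2 in lenses labelled Klf4CN, against 577.0, 500.8 and 623.7 in WT lenses, and 0 of the 15 genes were called. Gsta3 was lower without passing the test, at 37.5 and 46.4 in PN56 lenses labelled Klf4CN, against 159.4 and 122.8 in PN56 WT lenses (limma adjusted p = 0.08097). With age 4 of the 15 rose and 3 fell in lenses labelled Klf4CN, where 21.6% of all genes were called higher and 30.5% lower, and 3 rose and 4 fell in WT lenses, where 25% were called higher and 30.7% lower.

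Of the 11 genes tested that supply glutathione, 4 rose and 3 fell with age in lenses labelled Klf4CN, where 52.1% of all genes were called, and 3 rose and 3 fell in WT lenses, where 55.6% were, so the list's counts lay near those of all genes. Gclc and Gclm, the subunits of the rate-limiting enzyme of glutathione synthesis, rose by 0.69 and 1.05 on the log2 scale in lenses labelled Klf4CN and by 0.98 and 0.84 in WT lenses. With arrays centred on the median the Gclc change in Klf4CN lenses (0.35, limma adjusted p = 0.0528) and the Gclm change in WT lenses (0.33, limma adjusted p = 0.1155) missed the test. Ggct, which breaks down gamma-glutamyl peptides, fell by 2.95 in lenses labelled Klf4CN and by 2.47 in WT lenses. Gsr, glutathione reductase, fell by 1.37 in lenses labelled Klf4CN and by 1.43 in WT lenses. With its probe sets averaged the Klf4CN change was -0.65 (limma adjusted p = 0.00702). Its dimmer probe set averaged 287.3 at PN56 and 273.4 at E16.5 in lenses labelled Klf4CN, and 200.3 at PN56 and 364.5 at E16.5 in WT lenses. Between genotypes at PN56 only Slc3a2, a chain of the cystine transporter, was called, at 5964 and 5777 in lenses labelled Klf4CN, against 8820.1 and 7015 in WT lenses (log2 -0.42, limma adjusted p = 0.04079). That call was lost without any 1 array other than E16.5 Klf4CN replicate 1 and PN56 WT replicate 2, and without PN56 WT replicate 1 the difference was -0.26. It was also lost with arrays centred on the median (-0.29, limma adjusted p = 0.2703), with array weights (limma adjusted p = 0.1497) and without the intensity trend (limma adjusted p = 0.1279). The same held in a fit on the compared groups, without the filter, with the marker covariate, and with probe sets averaged or tested each by itself.

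Among the 9 genes tested of conjugate export and mercapturate processing, 0 were called between genotypes at PN56. Abcg2, an efflux pump, fell with age to 151.9 ± 39.0 in PN56 lenses labelled Klf4CN, against 2978 ± 462 in E16.5 ones, and to 153 ± 59.9 in PN56 WT lenses, against 2959 ± 205 in E16.5 ones (SD, n = 2 at PN56 and 3 at E16.5). With age 2 of the 9 rose and 4 fell in lenses labelled Klf4CN, against 52.1% of all genes called, and 2 rose and 3 fell in WT lenses, against 55.6%, so these counts too lay near those of all genes.

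Of 17 NRF2 regulators and targets outside the family, 4 were called higher in PN56 lenses labelled Klf4CN than in PN56 WT lenses, against 6.04% of all genes, and 2 lower, against 6.97%, and 0 were called at E16.5. Mafg, a small Maf partner of NRF2, had signals of 1578 and 1350.4 in PN56 lenses labelled Klf4CN, against 750.6 and 905.1 in PN56 WT lenses (log2 0.81, limma adjusted p = 0.005017). Srxn1, which repairs oxidised peroxiredoxins, had 607.9 and 466.0 in PN56 lenses labelled Klf4CN, against 242.2 and 279.6 in PN56 WT lenses (log2 0.99, limma adjusted p = 0.02192). Cul3, the ligase scaffold that works with Keap1, was higher by 0.46 (limma adjusted p = 0.01841). Tkt, a transketolase, was lower, at 60529.8 and 57572 in PN56 lenses labelled Klf4CN, against 86590 and 80851 in PN56 WT lenses (log2 -0.50, limma adjusted p = 0.004727). The Tkt call was lost under quantile normalization (-0.25, limma adjusted p = 0.1204), with arrays centred on the median (-0.38, limma adjusted p = 0.103) and in a fit on the compared groups alone (-0.50, limma adjusted p = 0.07759). Srxn1 lost its call without PN56 WT replicate 1 (0.89, limma adjusted p = 0.08824) or PN56 Klf4CN replicate 1 (0.80, limma adjusted p = 0.1014), and Cul3 without PN56 WT replicate 1 (0.34, limma adjusted p = 0.1195) or PN56 Klf4CN replicate 2 (0.36, limma adjusted p = 0.1098). With probe sets averaged per gene the difference was 0.26 for Srxn1 (limma adjusted p = 0.6629) and 0.077 for Cul3 (limma adjusted p = 0.7), and both calls were also lost with array weights and in the fit on the compared groups. With age 6 of the 17 rose and 9 fell in lenses labelled Klf4CN, against 21.6% of all genes higher and 30.5% lower, and 5 rose and 9 fell in WT lenses, against 25% higher and 30.7% lower. Of the 4 genes tested of the aryl hydrocarbon receptor list, 0 were called between genotypes at either age, and Arnt, the receptor's partner, fell with age by 1.16 on the log2 scale in lenses labelled Klf4CN and by 1.37 in WT lenses. At PN56 the median log2 difference between genotypes was 0.031 over the 15 other glutathione transferases and relatives, 0.027 over glutathione supply, 0.087 over export and mercapturate processing, 0.038 over the NRF2 list and 0.27 over the aryl hydrocarbon receptor list, against -0.056 over all genes tested.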

How the data were processed

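Whole lenses were measured on 10 Affymetrix mouse arrays, and the groups follow the labels' genotype and age. The deposited values are linear intensities, 1 per probe set and array, made with GCOS 1.4 per the submitters' processing notes. Every array has the same trimmed mean; the step that set it is not given in the sources used here. From these, log2(intensity + 16) was computed with no further scaling. Each gene was represented by its brightest probe set (mean log2 value), and 13450 genes at or above the 40th percentile were tested. One limma fit (version 3.58.1, R 4.3.3) held 4 group means over all 10 arrays, with an intensity trend and Benjamini-Hochberg adjustment, two-sided. The fit was tested on simulated data, with 200 of 13450 genes changed in each comparison. The data themselves gave 1750 calls at PN56 and 1 at E16.5. Adjusted p depends on how many genes change, so the shares recovered need not hold for the data. For the PN56 genotype comparison it recovered 13.4% of 1.5-fold, 34.3% of 2-fold and 75.8% of 4-fold changes. For the E16.5 comparison it recovered 29.9%, 40.3% and 83.3% in the same order. A gene not called here may thus still differ by such amounts. Named genes were the 9 members, up to 4 genes of smallest p from each list in a comparison, the 3 nearest profiles per member, and Klf4. The members and lists were chosen with earlier results of these data known. The number of arrays limits the precision. Alternatives included other scalings, offsets, filters, probe set rules, array weights, a marker covariate, a fit on the compared groups and leaving out each array.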

Additional observations from a re-analysis of the deposited data

Results flagged for a closer look

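The effect of the genotype, as the log2 difference between lenses labelled Klf4CN and WT lenses, differed between PN56 and E16.5 by limma's test of that difference for 8 of the genes described. They were 4 of the 9 members, 2 of 15 other glutathione transferases and relatives, and 2 of 17 NRF2 regulators and targets. Calls were 0 of 11 for glutathione supply, 0 of 9 for export and 0 of 4 for the aryl hydrocarbon receptor list. Of all genes tested, 4.79% were called. Gstm1 (0.82), Gstm5 (0.74) and Gstp1 (0.69) were more positive at PN56, and Gsto1 was more negative (-0.72). With probe sets averaged per gene, the difference was 0.057 for Gstm1 (limma adjusted p = 0.9103), whose other 3 probe sets gave 0.21, -0.061 and -0.75, and -0.47 for Gsto1 (limma adjusted p = 0.1274). Gsto1 also missed the test with arrays centred on the median (limma adjusted p = 0.1374) and with array weights (limma adjusted p = 0.06421), and Gstp1 under quantile normalization (0.31, limma adjusted p = 0.1393). Among the other genes of the pathway, the difference was 0.82 for Gstm7 (limma adjusted p = 0.02224), 1.30 for Gstk1 (limma adjusted p = 0.02032) and 0.79 for Mafg (limma adjusted p = 0.04104). It was -0.65 for Me1 (limma adjusted p = 0.03682), an NADPH-producing malic enzyme, whose effects were -0.16 at PN56 and 0.48 at E16.5. Gstk1 lost its call without PN56 Klf4CN replicate 2 (1.15, limma adjusted p = 0.0706). Gstm7 lost it without E16.5 WT replicate 1, E16.5 Klf4CN replicate 3, PN56 WT replicate 1 or PN56 Klf4CN replicate 2. Mafg lost it without any 1 array except E16.5 WT replicate 2 and PN56 WT replicate 2, and Me1 without any 1 array except E16.5 WT replicate 3. With probe sets averaged per gene Gstm7 (0.59, limma adjusted p = 0.3509), Mafg (0.76, limma adjusted p = 0.07917) and Me1 (-0.44, limma adjusted p = 0.2548) missed the test, as did Me1 with arrays centred on the median (-0.47, limma adjusted p = 0.2129) and Gstm7, Gstk1, Mafg and Me1 with array weights (limma adjusted p from 0.06234 to 0.103). Mafg also missed it with the replicate block (limma adjusted p = 0.05125) and with every probe set tested by itself (limma adjusted p = 0.05269). With pigment and retinal markers as a covariate, and without the intensity trend, none of these 8 passed the test. The covariate did not overlap between genotypes at E16.5, so that fit cannot tell what part the markers had. No group held 4 or more arrays, so single arrays were not screened for outlying values.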

How the results depend on the processing

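Counts of the 9 genes called changed under these settings. At PN56 3 were called between genotypes, against 1 without the intensity trend, 1 with array weights, 2 with arrays centred on the median, 2 in a fit on the compared groups and 4 under quantile normalization. At E16.5 0 were called, against 1 under quantile normalization and 1 with array weights. For the difference between ages 4 were called, against 2 with probe sets averaged per gene, 0 without the intensity trend and 0 with pigment and retinal markers as a covariate. With age 8 were called in lenses of each label, with 6 to 8 over settings in Klf4CN lenses (6 under quantile normalization) and 7 to 9 in WT lenses. Leaving out each array gave 1 to 3 between genotypes at PN56 and 2 to 5 for the difference, with the lowest without PN56 WT replicate 1; where 1 array of a PN56 group remained, it was assumed to vary like the other groups.

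Signs turned in these cases, none of them called as reported unless stated. Under quantile normalization they were Mgst1 between genotypes at PN56 (-0.031), and Gstp1 with age in Klf4CN (-0.0039, called as reported) and WT lenses (-0.31). With arrays centred on the median they were Gstp1 at E16.5 (-0.012), Gsta4 in the difference (0.15), Gstp1 with age in WT lenses (-0.34) and Gstm5 with age in Klf4CN lenses (-0.036, called as reported). With the mean of probe sets they were Gstm1 (-0.34) and Mgst1 (-0.73) at PN56, and with array weights Gsta4 in the difference (0.047). With the marker covariate they were Gsta4 (-0.073), Gstp1 (-0.0032) and Mgst1 (-0.24) at E16.5, and Gsta4 (0.23), Gstt1 (1.25) and Mgst1 (0.43) in the difference. Over leave-outs the ranges were: in the difference, Gstt1 -0.83 to 0.12, Gsta4 -0.29 to 0.17, Mgst1 -0.62 to 0.029 and Mgst3 -0.17 to 1.30; at E16.5, Gstp1 -0.0087 to 0.085, Gstt1 -0.54 to 0.41 and Gsta4 -0.071 to 0.39; at PN56, Mgst1 -0.055 to 0.15 and Gsta4 -0.012 to 0.22; and for Mgst3 with age in Klf4CN lenses -1.19 to 0.29. The cause was not tested.

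With the replicate number as a replicate block, the Gstm5 change with age in Klf4CN lenses was 0.27 (limma adjusted p = 0.05021), and no other member's call changed. Deviations of same-numbered arrays correlated at 0.268, 0.241 and 0.0508 at E16.5, and those of differently numbered arrays at -0.279 to 0.0626. WT replicate 3 at E16.5 correlated better with Klf4CN replicate 2 (0.0626) than with its own number. At PN56, with 2 arrays per group, the values can differ only in sign (0.0422 for the same number, -0.0422 otherwise). These values do not settle whether the numbers mark pairs, and the main fit did not treat them as pairs. Over all genes, 1750 were called at PN56, against 637 with array weights, 806 in a fit on the 2 compared groups, 1034 with the mean of probe sets, 1165 without the trend and 1058 to 1905 over leave-outs. For the difference 644 were called, against 85 with the marker covariate, 201 without the trend, 294 with the mean of probe sets, 322 with array weights and 277 to 940 over leave-outs; at E16.5 1 was called, and the range over settings was 0 to 8. The share of higher calls, 46.4% at PN56, was 71.9% with arrays centred on the median, in the difference 56.2%, against 83.2% centred, and with age it was 41.5% in Klf4CN and 44.9% in WT lenses, against 22.5% and 19.9% centred. Filtering at the 60th percentile left Gstt1 untested, and the fit on 2 groups gives no difference term.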
